A study of Homo sapiens with 12 samples.

Results

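TXNIP and its relatives among the arrestin-domain genes were followed across the arrays, together with MLXIP and MLX, which encode the partners of the transcription factor complex that acts on TXNIP. The 7 genes were TXNIP, ARRDC4, ARRDC3, ARRDC2, ARRDC1, MLXIP and MLX, of 19775 genes that the array annotation names alone on a probe set. They were taken by name, and all 18 probe sets that name one of them alone were read, of 54613 probe sets that are not manufacturer's controls. Of these 18 probe sets, 12 passed the filter on dim values, a log2 value above 4 on at least 3 of the 12 arrays. The brightest probe set of a gene, by its mean on all 12 arrays, leads. TXNIP and ARRDC4 were selected on their measured change between Nnm and control, and the other 5 by their relation to them. The Nnm values of TXNIP and ARRDC4 are therefore given as a description and were not tested. All 7 genes and the gene lists below were chosen with earlier results of these data known. The p-values of the other 5 and of the list genes do not take that choice into account.

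The cells were HK-2, an established line of immortalized epithelial cells of the human kidney's proximal tubule, kept in medium with 5 mM glucose and insulin. There were 4 groups of 3 biological replicates, 1 Affymetrix array each: cells exposed to Nnm at high dose for 24 h, cells exposed to it for 48 h, and cells given only the vehicle for 24 h or for 48 h. The sources used here do not give the dose, the vehicle or what Nnm stands for. All groups share 1 cell line and 1 medium. Whether the replicates came from separate experiments is not stated, so each p-value measures the spread between these arrays, which may be partly technical.

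TXNIP binds reduced thioredoxin and slows glucose entry by drawing glucose transporters from the cell surface. It belongs to the alpha-arrestins, which carry arrestin folds and link membrane proteins to ubiquitin ligases of the NEDD4 family; the ARRDC genes are its relatives. MondoA, the product of MLXIP, pairs with MLX, moves to the nucleus when phosphorylated glucose accumulates, and binds carbohydrate response elements in the TXNIP and ARRDC4 promoters.

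The promoters of TXNIP, ARRDC4 and ARRDC3, the 3 members with the largest rises, are shown to set the response elements beside the measurements. Each line is the 250 bases before a RefSeq start site on GRCh38.p14, read 5′ to 3′ on the gene's strand: chr1:145996580-145996829 on the minus strand for TXNIP, chr15:97960453-97960702 on the plus strand for ARRDC4, and chr5:91383318-91383567 on the minus strand for ARRDC3. Capitals mark CCAAT on either strand (ATTGG is the other strand's), the E-box CACGTG and, in TXNIP, the tandem half-sites, CACGNG repeated on one strand after a gap of 5 bases.
TXNIP: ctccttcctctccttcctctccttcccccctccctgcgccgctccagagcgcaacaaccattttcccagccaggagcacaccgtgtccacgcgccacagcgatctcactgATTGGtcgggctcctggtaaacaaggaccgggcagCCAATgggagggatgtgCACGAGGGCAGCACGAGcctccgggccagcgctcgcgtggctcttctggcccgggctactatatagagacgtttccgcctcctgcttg
ARRDC4: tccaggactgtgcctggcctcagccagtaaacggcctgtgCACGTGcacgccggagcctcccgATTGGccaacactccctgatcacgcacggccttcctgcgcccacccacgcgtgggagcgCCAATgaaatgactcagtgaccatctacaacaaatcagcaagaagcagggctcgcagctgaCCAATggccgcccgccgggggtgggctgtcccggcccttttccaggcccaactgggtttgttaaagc
ARRDC3: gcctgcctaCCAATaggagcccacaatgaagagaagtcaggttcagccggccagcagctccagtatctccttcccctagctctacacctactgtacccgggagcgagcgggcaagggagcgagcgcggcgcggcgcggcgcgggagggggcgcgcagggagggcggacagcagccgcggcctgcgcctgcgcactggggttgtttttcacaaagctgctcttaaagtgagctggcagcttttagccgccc

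With -1 as the base before the start site, the TXNIP run held the tandem half-sites CACGAGGGCAGCACGAG at -88 to -72, with CCAAT at -140 to -136 on the other strand and at -105 to -101. This tandem pattern was chosen after the TXNIP promoter had been read, and on either strand it occurred in 16 of 35116 RefSeq promoter windows (0.0456%). A search for the relaxed carbohydrate response element, CANGNG and CNCNTG with a gap of 5 bases on either strand, found it in 0.458% of windows and in none of the members' windows. The ARRDC4 run held an E-box at -210 to -205 and CCAAT at -187 to -183 on the other strand, at -128 to -124 and at -67 to -63. The ARRDC3 run held 1 CCAAT, at -241 to -237, and no E-box. MLX was the other member with an E-box, at -50 to -45. The E-box occurred in 6.34% of all windows, CCAAT in 32.0% and TATAAA in 10.7%. A second TXNIP start site and a second ARRDC3 start site held none of these motifs in their windows. These matches describe letters only, and no binding was measured.

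Across the whole table, both Nnm arrays numbered 2 lay near the control arrays. The first principal component, with 57.4% of the variance, put the 6 controls between 44.2 and 49.6, the Nnm replicates 1 and 3 between -87.8 and -68.6, and Nnm replicate 2 at 16.1 at 24 h and 19.8 at 48 h. Values are therefore also given without both of these arrays. Since the arrays were left out for lying near the controls, the p-values so obtained are not tests of the genes. The same holds where Nnm replicate 2 of 1 time alone is left out. Array weights, which weigh arrays by quality, were lowest for these arrays, at 0.14 at 24 h and 0.20 at 48 h. Weighted fits thus come close to leaving these arrays out, and their p-values are not separate tests. Same-numbered arrays deviated together in all 18 pairs across groups, so a fit with the replicate number as a block is given where it changes a call. None of the 10 proximal tubule markers on the array (LRP2, CUBN, AQP1 and others) averaged above log2 4 in the controls, whereas 6 of 7 general renal epithelium markers did, with PAX8 and EPCAM among them. COL1A1, DCN and LUM, 3 of 6 fibroblast markers, were also above log2 4, and 0 of 4 leukocyte markers were. No marker of the proximal tubule, distal nephron or leukocyte lists passed the filter, so none of these could be called. Tested were 6 renal epithelium, 3 fibroblast, 2 podocyte and 1 endothelium markers. Of these, limma called 0 with Nnm at 24 h or 48 h, beside 14.7% and 10.2% of all tested probe sets. The summed log2 level of the fibroblast list at 24 h ranged from 39.4 to 40.0 in controls and from 37.3 to 40.6 with Nnm. That of 4 podocyte markers, of which SYNPO and PODXL were above log2 4 and NPHS1 and WT1 were not, ranged from 17.4 to 18.0 in controls and from 18.2 to 19.1 with Nnm at 24 h, and from 17.4 to 18.2 and from 18.3 to 19.1 at 48 h. The renal epithelium sum at 24 h ranged from 70.8 to 71.9 in controls and from 67.5 to 70.8 with Nnm. For 5 endothelium markers, of which PECAM1 alone was above log2 4, the sum at 48 h ranged from 14.9 to 15.5 in controls and from 15.6 to 15.9 with Nnm. The part of these lists in the results was not tested. In a bulk sample, fewer cells of a type and less RNA per cell cannot be told apart.

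TXNIP (gene ID 10628, chr1:145992435-145996579 on GRCh38.p14) was high in every Nnm-treated array. In controls at 24 h its log2 values were 9.46, 9.96 and 9.23, and with Nnm at 24 h they were 12.43, 12.05 and 12.48. In controls at 48 h they were 4.22, 6.80 and 7.24, and with Nnm at 48 h 12.66, 11.87 and 12.78. All 6 Nnm arrays lay above all 6 controls, and the lowest of the 12 arrays was control replicate 1 at 48 h. Nnm was thus above control by 2.77 on the log2 scale at 24 h (6.81-fold, SE 0.64, n = 3) and by 6.35 at 48 h (81.4-fold, SE 0.64, n = 3). Both other TXNIP probe sets gave similar values, 2.86 and 2.75 at 24 h and 6.28 and 5.98 at 48 h.

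The 48 h change of TXNIP exceeded its 24 h change by 3.58 (SE 0.90), and nearly all of this lay between the control groups. With Nnm, 48 h differed from 24 h by 0.12 (95% interval -1.30 to 1.53; adjusted p = 0.956 in limma), and the arrays of both times overlapped. In controls, 48 h was lower than 24 h by -3.46 on the log2 scale (SE 0.64), and the 3 arrays of one time did not overlap those of the other. Its unadjusted p was 0.000257 and its adjusted p 0.248, so the difference was not called. The other probe sets differed by -3.27 (adjusted p = 0.134) and -3.11 (adjusted p = 0.248). Of 23 alternatives, 22 left the difference uncalled (highest limma adjusted p = 0.982). The 1 that called it was the fit with array weights (-3.19, limma adjusted p = 0.0422). These control arrays also entered the change on which TXNIP was selected, so the p-values are not independent evidence of a drop. Control replicate 1 at 48 h carried a part of the size: without it the control drop was -2.53 (adjusted p = 0.140), the 48 h change with Nnm was 5.41, and the excess of the 48 h change over the 24 h change was 2.65 in place of 3.58.

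**Figure D1:**
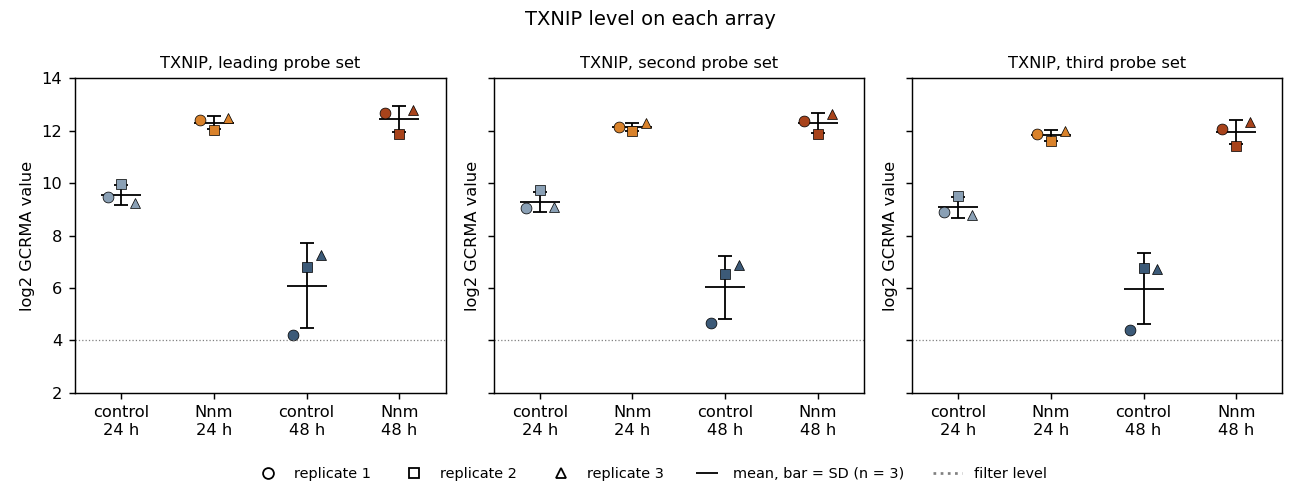
Log2 level of TXNIP on each of the 12 arrays for its 3 probe sets, by group, with points for arrays and bars for group means. The 6 Nnm arrays of the leading probe set lie between 11.87 and 12.78, while the controls fall from a mean of 9.55 at 24 h to 6.09 at 48 h, with replicate 1 at 4.22.

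ARRDC4 (gene ID 91947, chr15:97960703-97973833 on GRCh38.p14), an alpha-arrestin that, like TXNIP, lowers glucose uptake and answers to MondoA, had 1 probe set. Its log2 values were 3.41, 3.62 and 3.49 in controls at 24 h, and 7.60, 4.96 and 7.76 with Nnm at 24 h. At 48 h they were 2.24, 3.05 and 2.48 in controls and 6.58, 4.55 and 6.42 with Nnm. The probe set passed the filter only through the Nnm arrays, all of which lay above all controls, and Nnm replicate 2 was the lowest of its group at both times. The measured change was 3.27 at 24 h (SE 0.72) and 3.26 at 48 h (SE 0.72), with n = 3 in each group. Since the controls lay under log2 4, the fold with Nnm against that level was at least 6.84-fold at 24 h and at least 3.61-fold at 48 h. Without the Nnm arrays numbered 2, the changes were 4.17 and 3.91.

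All ARRDC4 controls lay under log2 4, so a change between control times could not be read from them, and no difference between the 24 h and 48 h changes is drawn. In Nnm-treated cells ARRDC4 averaged 6.77 ± 1.57 at 24 h and 5.85 ± 1.13 at 48 h (SD, n = 3), and the arrays of both times overlapped. The difference between these means, -0.92 (SE 0.72), was -1.18 without both Nnm arrays numbered 2 and -1.83 without Nnm replicate 2 at 24 h, and is a description, since ARRDC4 was selected on these arrays.

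ARRDC3 (gene ID 57561, chr5:91368631-91383317 on GRCh38.p14), an adaptor that links receptors to NEDD4-family ligases, rose with Nnm at both times. Its 1 probe set read 8.84, 9.03 and 8.60 in controls at 24 h and 11.13, 10.65 and 10.80 with Nnm. The 48 h values were 8.84, 9.39 and 9.04 in controls and 11.00, 10.79 and 10.97 with Nnm. The groups did not overlap at either time, and every Nnm array lay more than 1 above every control. The change was 2.04 at 24 h (4.11-fold, 95% interval 1.63 to 2.45, SE 0.18, n = 3, limma adjusted p = 0.00239) and 1.83 at 48 h (3.56-fold, 95% interval 1.43 to 2.24, SE 0.18, n = 3, adjusted p = 0.00262). These calls were kept in each of 24 alternatives at each time, with highest adjusted p of 0.0386 at 24 h and 0.0445 at 48 h. The change at 48 h differed from that at 24 h by -0.20 (95% interval -0.78 to 0.37, adjusted p = 0.899). ARRDC3 controls at 48 h differed from those at 24 h by 0.27 (95% interval -0.14 to 0.67, adjusted p = 0.772).

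ARRDC2 (gene ID 27106, chr19:18001124-18014102 on GRCh38.p14), a further alpha-arrestin, had 1 probe set. It read 5.65, 5.62 and 6.00 in controls at 24 h and 7.81, 4.84 and 7.54 with Nnm. At 48 h it read 6.13, 5.67 and 5.97 in controls and 6.59, 5.59 and 6.43 with Nnm. The groups overlapped at both times because Nnm replicate 2 lay under all controls of its time, while Nnm replicates 1 and 3 lay above them. The mean change was 0.98 at 24 h (SE 0.64, 95% interval -0.44 to 2.39, limma adjusted p = 0.294) and 0.27 at 48 h (adjusted p = 0.805), so neither was called. Without Nnm replicate 2 at 24 h the change at 24 h was 1.92 (adjusted p = 0.00124), and without both Nnm arrays numbered 2 it was 1.92 at 24 h (adjusted p = 6.18e-05) and 0.58 at 48 h (adjusted p = 0.0277). The 24 h change with array weights, which were lowest for the Nnm arrays numbered 2, was 1.81 (adjusted p = 0.000332). With those 2 arrays left out, the 48 h change was smaller than the 24 h change by -1.34 (adjusted p = 0.0152), and with Nnm replicate 2 at 24 h alone left out by -1.65 (adjusted p = 0.0446). Nnm-treated cells at 48 h against 24 h differed by -0.53 (95% interval -1.94 to 0.88); this was called without Nnm replicate 2 at 24 h (-1.47, adjusted p = 0.00960).

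ARRDC1 (gene ID 92714, chr9:137605686-137615360 on GRCh38.p14), which drives the budding of vesicles from the plasma membrane, moved the other way. Its leading probe set read 8.37, 7.62 and 7.95 in controls at 24 h and 5.94, 7.47 and 5.95 with Nnm. The 48 h values were 8.29, 7.47 and 8.29 in controls and 7.42, 7.45 and 7.59 with Nnm. At 24 h the groups did not overlap, but Nnm replicate 2 lay close to the controls; at 48 h they overlapped. ARRDC1 fell by 1.53 on the log2 scale at 24 h (2.88-fold, SE 0.39, n = 3, limma adjusted p = 0.0327), and at 48 h the change was -0.53 (95% interval -1.41 to 0.34, adjusted p = 0.389). The 24 h call was lost with the block within each time (adjusted p = 0.0618) but not with the block over all arrays (0.0338). It was also lost with no filter (0.104), with only the groups compared in the fit (0.0996), without Nnm replicate 1 (0.133) or 3 (0.123) and without control replicate 1 (0.107) or 3 (0.107) of 24 h. Nnm-treated cells were higher at 48 h than at 24 h by 1.04 (adjusted p = 0.300), a difference called without Nnm replicate 2 at 24 h (1.54, adjusted p = 0.00729). The 48 h change differed from the 24 h change by 1.00 (95% interval -0.24 to 2.23, adjusted p = 0.781). This difference was called with array weights (1.63, adjusted p = 0.0148) and without both Nnm arrays numbered 2 (1.52, adjusted p = 0.0423). These calls are not separate tests, since the weights were lowest for the same arrays. The other ARRDC1 probe set was under the filter, near log2 2.45 in all groups.

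MLXIP (gene ID 22877, chr12:122078756-122147344 on GRCh38.p14), which encodes MondoA, was higher with Nnm at both times and was called at 48 h. Its leading probe set read 7.19, 6.59 and 7.00 in controls at 24 h and 8.37, 7.23 and 7.99 with Nnm. At 48 h it read 7.19, 6.83 and 6.40 in controls and 8.73, 7.55 and 8.47 with Nnm. At both times all Nnm arrays lay above the controls of their time, with Nnm replicate 2 nearest to them. The change was 0.94 at 24 h (95% interval 0.13 to 1.75, limma adjusted p = 0.0979) and 1.44 at 48 h (2.71-fold, SE 0.36, n = 3, adjusted p = 0.0361). The replicate block over all arrays called the 24 h change too (adjusted p = 0.0241), while the block within each time did not (0.0600), and without Nnm replicate 2 at 24 h it was 1.25 (adjusted p = 0.0213).

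The 48 h call of MLXIP was lost in 11 of 24 alternatives. These were no filter (adjusted p = 0.112), a fit of only the groups compared (0.0854), the mean of all its probe sets (0.82, adjusted p = 0.0563) and 8 fits with 1 array left out. The left-out arrays were Nnm replicates 1 (0.142) and 3 (0.129) and control replicates 1 (0.0687), 2 (0.0873) and 3 (0.122) of 48 h, and Nnm replicate 3 (0.0509) and control replicates 1 (0.0536) and 3 (0.0543) of 24 h. The next MLXIP probe set gave 0.43 at 24 h (adjusted p = 0.510) and 1.46 at 48 h (adjusted p = 0.0568), and 2 further probe sets were under the filter.

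MLX (gene ID 6945, chr17:42567100-42573203 on GRCh38.p14), the partner of MondoA on DNA, showed no called change in the fit of all arrays. Its leading probe set read 8.76, 8.90 and 8.49 in controls at 24 h and 9.41, 8.85 and 9.08 with Nnm. The 48 h values were 9.40, 9.18 and 9.15 in controls and 9.69, 8.89 and 9.31 with Nnm. The groups overlapped at both times, with Nnm replicate 2 lowest in each Nnm group. The change was 0.40 at 24 h (95% interval -0.08 to 0.88, limma adjusted p = 0.213) and 0.06 at 48 h (95% interval -0.42 to 0.54, adjusted p = 0.887). The 24 h change was called with array weights (0.48, adjusted p = 0.0202) and without both Nnm arrays numbered 2 (0.53, adjusted p = 0.0357). Here too the weights were lowest for the arrays left out, so the calls are not separate tests. MLX probe sets disagreed in sign: at 24 h and 48 h the next brightest gave -0.18 and -0.24, a further one gave 0.40 and 0.05, and 3 others were under the filter.

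**Figure D2:**
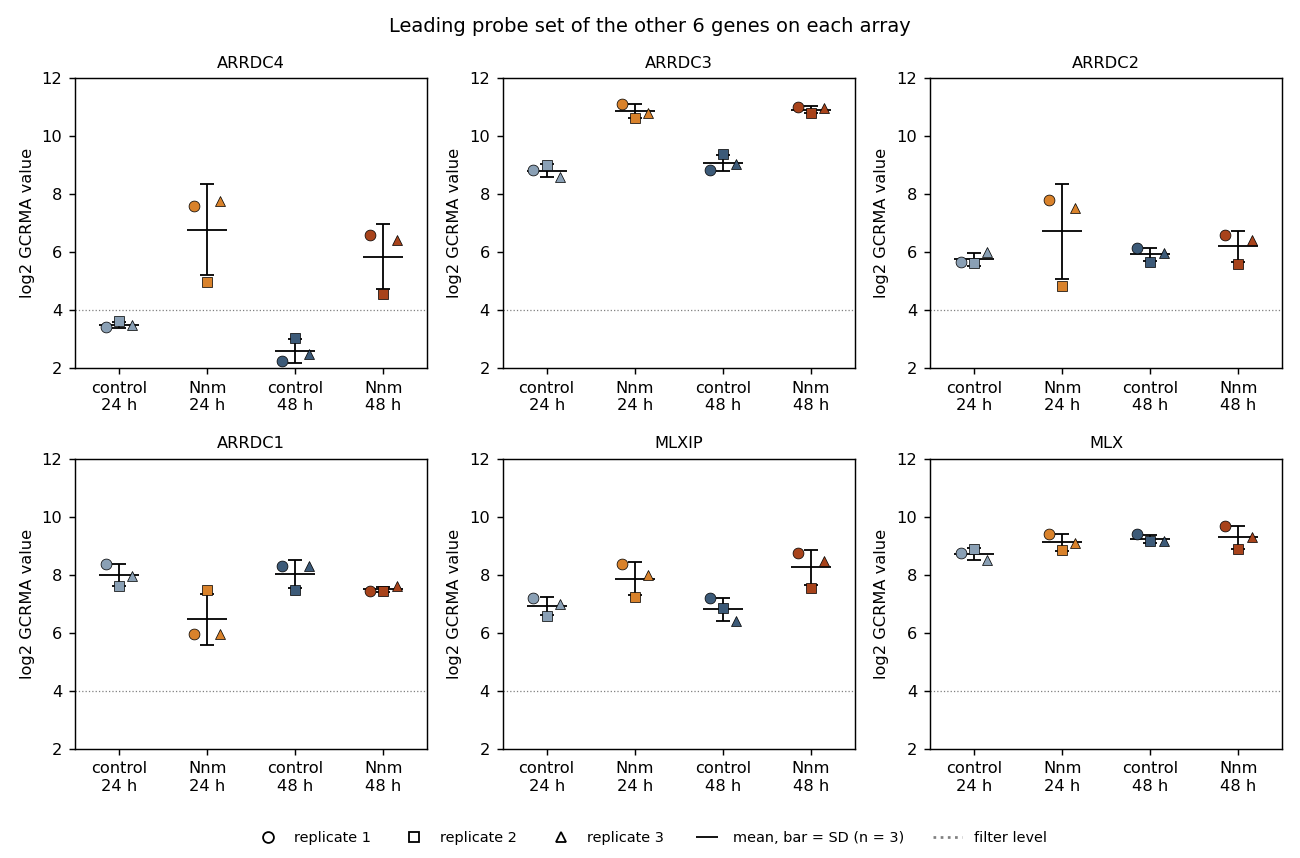
Log2 level of the leading probe set of the other 6 genes on each of the 12 arrays, by group, with points for arrays and bars for group means. ARRDC4, ARRDC3 and MLXIP lie above their controls on every Nnm array, with Nnm replicate 2 of MLXIP nearest to its controls. ARRDC2 and ARRDC1 with Nnm at 24 h split into replicates 1 and 3 and a replicate 2 that lies by the controls or below them.

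Of the 5 genes that could be tested in the Nnm comparisons, limma called 2 at 24 h (ARRDC3 up, ARRDC1 down), where 14.7% of the 22829 tested probe sets were called. At 48 h it called 2 (ARRDC3 and MLXIP, both up), where 10.2% of tested probe sets were called. Without overlap between Nnm and control were 3 of the 5 at 24 h, where 37.2% of probe sets did not overlap, and 2 of the 5 at 48 h, where 34.8% did not. For the difference between both Nnm effects, limma called 0 of the 5 members (0 at an unadjusted p under 0.05), beside 0% of all probe sets, of which 1418 had an unadjusted p under 0.05. In controls at 48 h against 24 h, limma called 0 of the 7 members (TXNIP and MLX had an unadjusted p under 0.05, and ARRDC4 lay under log2 4 throughout), beside 0% of all probe sets, of which 1836 had an unadjusted p under 0.05. TXNIP and MLX controls did not overlap between times, which held for 23.3% of all probe sets. ARRDC4 controls did not overlap either, but all lay under log2 4, where values carry no order. MLX controls were higher at 48 h by 0.52 (unadjusted p = 0.0351, adjusted p = 0.590). In Nnm-treated cells at 48 h against 24 h, limma called 0 of the 7 (ARRDC1 had an unadjusted p under 0.05), beside 0% of all probe sets, of which 3138 had an unadjusted p under 0.05, and 0 of 7 did not overlap, beside 11.6%. TXNIP and ARRDC4 are counted in both comparisons over time as a description, since these arrays entered the change on which they were selected.

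The members differed in how far Nnm replicate 2, whose array lay near the controls, followed replicates 1 and 3. At 24 h TXNIP rose by 2.90 in the mean of replicates 1 and 3 and by 2.50 in replicate 2, a share of 86.1%. At 48 h these values were 6.63 and 5.78, a share of 87.1%. For ARRDC3 the share was 85.4% at 24 h and 89.7% at 48 h. TXNIP was selected on a change that includes replicate 2, so its share is a description only. Among 2427 probe sets that rose by at least 1 at 24 h in replicates 1 and 3, the median share was 22.5% and 6.51% had a share of at least 80%. Among the 2339 such probe sets at 48 h, the median was 26.7% and 6.54% reached 80%. TXNIP and ARRDC3 rose by more than 1 in replicate 2, as did 12.3% of those probe sets at 24 h and 13.9% at 48 h.

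For ARRDC4, whose control means lay under log2 4, the measured share was 35.0% at 24 h (1.46 against 4.17) and 50.1% at 48 h (1.96 against 3.91). Measured from log2 4 in place of the control means, it was 26.2% and 22.1%. For MLXIP the share was 24.5% and 41.6%. ARRDC2 went the other way in replicate 2, with -0.92 against 1.92 at 24 h. With the control of the same number taken off each Nnm array in place of the control mean, the shares were 67.1% and 72.5% for TXNIP, 72.4% and 68.4% for ARRDC3, and 31.8% and 36.2% for ARRDC4, beside medians of 23.0% and 28.5%. These shares are a description of single arrays, and the difference between the genes was not tested.

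**Figure D3:**
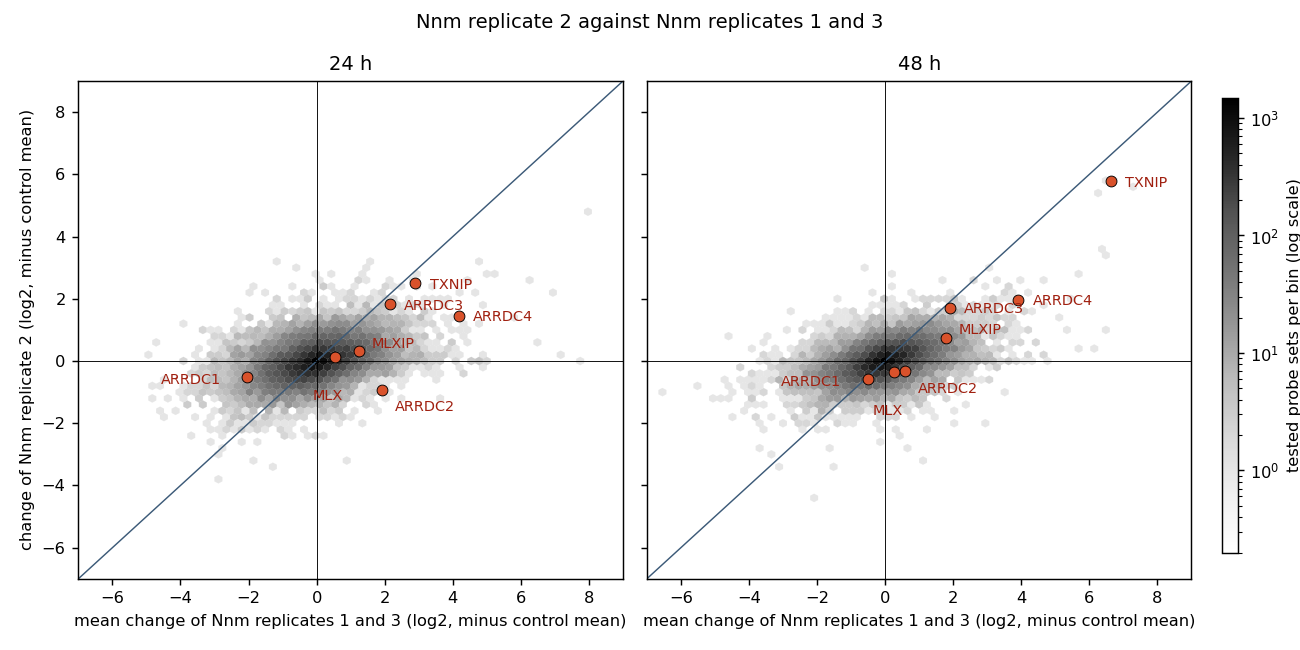
Change of Nnm replicate 2 (y axis, log2, minus the control mean) against the mean change of Nnm replicates 1 and 3 (x axis, log2) at 24 h and 48 h, with grey bins for all tested probe sets, red points for the 7 genes and a line of equal change. TXNIP and ARRDC3 lie near the line at both times, with shares of 85.4% to 89.7%, whereas ARRDC4, MLXIP and ARRDC2 lie below it.

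Other proteins of the arrestin superfamily were read from a list of 6 genes. ARRB2 and ARRDC5 had no probe set naming them alone, and the other 4 passed the filter. ARRB1, which encodes beta-arrestin 1, was called at both times: its level was 6.18 ± 0.11 in controls and 8.07 ± 0.25 with Nnm at 24 h (SD, n = 3), a rise of 1.89 (limma adjusted p = 0.0236). At 48 h ARRB1 rose by 2.02 (adjusted p = 0.0212), from 6.93 ± 0.01 to 8.95 ± 1.13, with replicate 2 at 0.75 over the control mean. None of the other 3, VPS26A, VPS26B and VPS26C, was called. The list's median change was 0.43 at 24 h and 0.11 at 48 h, beside -0.01 and 0.01 over all tested probe sets.

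In the network of MAX and MLX partners, 10 of 11 genes had a probe set naming them alone, and 8 passed the filter. MXI1, a repressor that pairs with MAX, was the 1 called at 24 h, where it rose by 1.05 (adjusted p = 0.0265 in limma), from 9.33 ± 0.19 to 10.37 ± 0.47 (SD, n = 3). MYC, an activator in the network, was the 1 called at 48 h, where it fell by 0.66 (limma adjusted p = 0.0488). At 24 h the MYC change was -0.61 (adjusted p = 0.0512). This adjusted p was 0.0460 with the replicate block over all arrays and 0.0918 with the block within each time. MLXIPL, which encodes the MondoA relative ChREBP, was under the filter, with group means between 3.09 and 3.29. The list's median was 0.46 at 24 h and -0.02 at 48 h.

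Of 19 further targets of MondoA and ChREBP, 13 passed the filter, and limma called none of them as higher with Nnm. At 24 h 0 rose and 2 fell, with 1 higher and 6 lower at an unadjusted p under 0.05. At 48 h 0 rose and 3 fell, with 2 higher and 4 lower at an unadjusted p under 0.05. PFKFB2, an enzyme that sets the level of the glycolytic activator fructose 2,6-bisphosphate, fell by 1.78 at 24 h (adjusted p = 0.0275) and by 2.42 at 48 h (adjusted p = 0.0134). FASN, the fatty acid synthase, fell by 1.31 (adjusted p = 0.0127) and by 1.28 (adjusted p = 0.0135). ACLY, which makes acetyl-CoA for lipid synthesis, fell by 0.64 at 48 h (adjusted p = 0.0460). The list's median was -0.23 at 24 h and -0.09 at 48 h.

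Among genes of glucose transport and phosphorylation, 15 of 17 had a probe set naming them alone, and 9 passed the filter. SLC2A13, a myo-inositol transporter of the glucose transporter family, rose by 1.36 at 24 h (adjusted p = 0.0185 in limma). SLC2A6, a further member of that family, fell by 1.23 (adjusted p = 0.0143), and HK1, a hexokinase that phosphorylates glucose, fell by 0.76 (adjusted p = 0.0304). At 48 h limma called 0 of the 9 (3 had an unadjusted p under 0.05), and the list's median was 0.47 at 24 h and 0.30 at 48 h.

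In the thioredoxin system, to which TXNIP binds, all 9 genes with a reading passed the filter, of 11 listed. TXNRD1, the cytosolic thioredoxin reductase, rose by 1.97 at 24 h (adjusted p = 0.0121 in limma), from 11.78 ± 0.10 to 13.75 ± 0.64 (SD, n = 3), and by 1.58 at 48 h (adjusted p = 0.0215). TXNRD2, its mitochondrial counterpart, fell by 1.12 at 24 h (adjusted p = 0.0424). PRDX2, a peroxiredoxin reduced by thioredoxin, fell by 0.85 at 48 h (adjusted p = 0.0285). The list's median was -0.09 at 24 h and -0.33 at 48 h.

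Of 11 NEDD4-family ligases and their adaptors, the partners of alpha-arrestins, 10 had a probe set naming them alone, and all 10 passed the filter. Limma called none of them, with 2 at an unadjusted p under 0.05 at 24 h and 2 at 48 h. The smallest p was that of SMURF2, at 0.74 at 24 h (adjusted p = 0.0516 in limma; 0.0348 with the replicate block over all arrays and 0.0618 with the block within each time). The list's median was 0.06 at 24 h and -0.13 at 48 h.

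Of 16 known regulators of TXNIP, 15 passed the filter and 2 were called at 24 h. PRKAA2, a catalytic subunit of the energy sensor AMPK, rose by 1.02 (adjusted p = 0.0172 in limma), and NFYB, a subunit of the factor that binds CCAAT, rose by 0.68 (adjusted p = 0.0196). At 48 h limma called 0 (3 had an unadjusted p under 0.05), and PRKAA2 was at 0.73 (adjusted p = 0.0503; 0.0326 with the block over all arrays and 0.0705 with the block within each time). The list's median was 0.27 at 24 h and -0.01 at 48 h. Of 7 inflammasome genes, for whose sensor NLRP3 the TXNIP protein is a known ligand, 3 passed the filter. IL18, a cytokine that caspase-1 matures, rose by 0.78 at 48 h (adjusted p = 0.0496), while NLRP3 and CASP1 were under the filter in all groups, and the medians of the list were -0.01 and 0.18.

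All 8 lists together held 11 calls at 24 h and 8 at 48 h. In the order given, the lists held 4, 8, 13, 9, 9, 10, 15 and 3 tested genes. Over all 22829 tested probe sets, limma called 14.7% at 24 h and 10.2% at 48 h. Whether the lists differed from that share was not tested, so their calls are read gene by gene only. Leaving out both Nnm arrays numbered 2 kept all 11 and all 8. Leaving out 1 array of 24 h lost, of the 11 calls at 24 h, 11 without Nnm replicate 1, 11 without Nnm replicate 3, 10 without control replicate 1, 3 without control replicate 2 and 11 without control replicate 3 (highest adjusted p = 0.155), and of the 8 calls at 48 h each such control or Nnm replicate but Nnm replicate 2 lost ACLY, MYC and IL18 (highest 0.0731). Leaving out 1 array of 48 h lost, of the 8, 7 without Nnm replicate 1, 7 without Nnm replicate 3, 8 without control replicate 1, 6 without control replicate 2 and 8 without control replicate 3 (highest 0.178), and of the 11 each but control and Nnm replicate 2 lost TXNRD2 (highest 0.0592). The block within each time lost TXNRD2 at 24 h (0.0782) and MYC, ACLY and IL18 at 48 h (highest 0.0920). With no filter 6 of the 11 and 6 of the 8 were lost (highest 0.126), with only the groups compared in the fit 10 and 8 (highest 0.106), with arrays centred 0 and 2 (IL18 and MYC, highest 0.0545), and with quantile normalization 0 and 1 (MYC, 0.0559). In the other 3 comparisons limma called 0 list genes. At an unadjusted p under 0.05 there were 4 for the difference between the Nnm effects, 5 in controls over time and 9 in Nnm-treated cells over time.

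**Figure D4:**
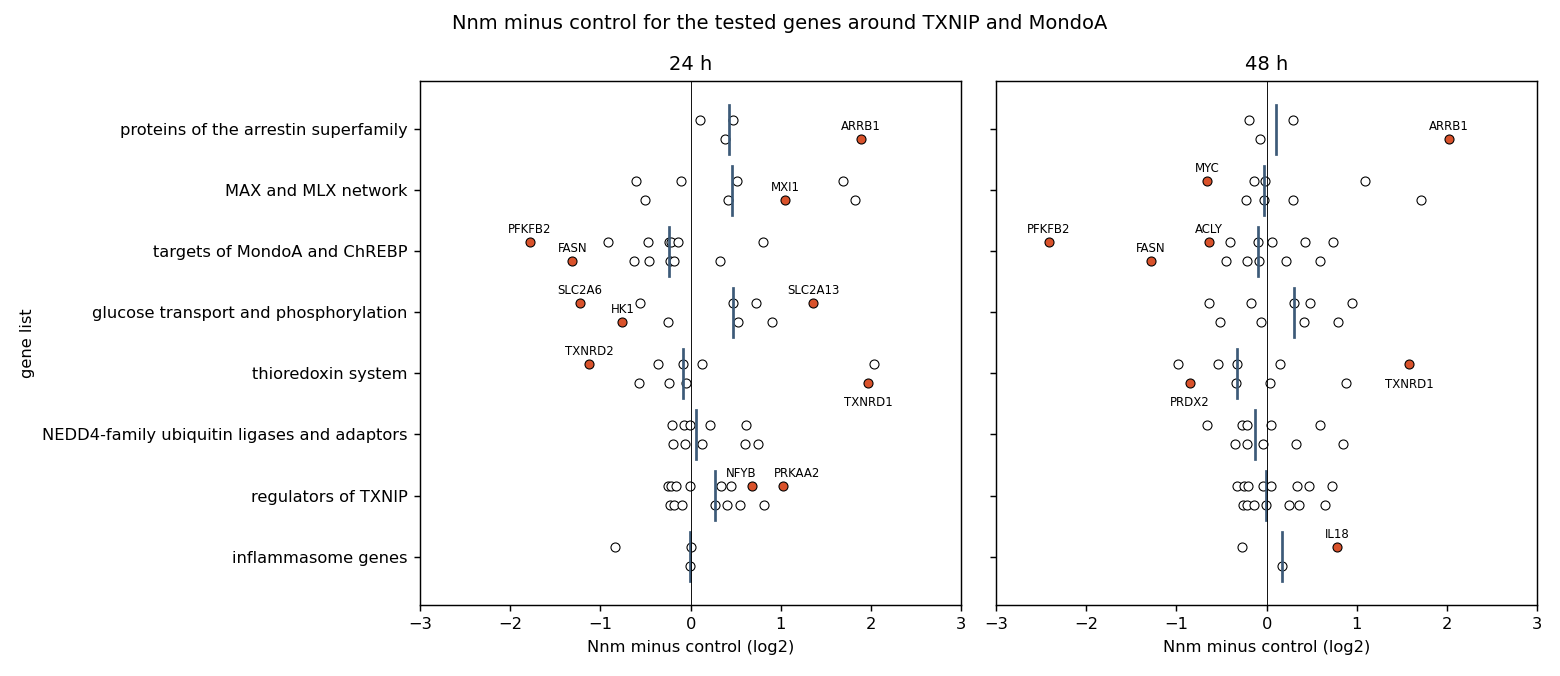
Log2 change with Nnm of each tested gene in 8 lists at 24 h and 48 h, with filled points for genes at an adjusted p under 0.05 and bars for list medians. TXNRD1 and ARRB1 are called as higher and PFKFB2 and FASN as lower at both times.

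The genes with values most like those of TXNIP and ARRDC4 were found by the root mean square difference between 12 centred log2 values, over 9622 genes with a brightest group mean of at least log2 6 and with the 7 members left out of the ranking. The nearest of these to TXNIP were RSPO3 (1.46), a secreted enhancer of Wnt signalling, SPHK1 (1.47), a sphingosine kinase, SHISA2 (1.55), MAP2 (1.60), a microtubule protein, and G0S2 (1.61), an inhibitor of triglyceride lipase. These differences were about as large as the genes' own spread, 1.43 to 1.99 (SD over 12 arrays), since TXNIP ranged more widely, with an SD of 2.80. ARRDC4 lay at 1.44 from TXNIP and ARRDC3 at 1.96. Without control replicate 1 at 48 h, or without both Nnm arrays numbered 2, 2 of the 5 genes stayed among the nearest 5, and 3 stayed without replicate 2 of either group at 24 h.

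Of the same genes, nearest to ARRDC4 were VDR (0.52), the vitamin D receptor, GPAT3 (0.57), an enzyme of triglyceride synthesis, MSX1 (0.58), a homeobox factor, CAPN5 (0.61), a calpain, and SHISA2 (0.64). VDR, for example, averaged 4.53 ± 0.37 in controls and 7.04 ± 2.09 with Nnm at 24 h, and 3.56 ± 0.15 and 6.47 ± 1.75 at 48 h (SD, n = 3). Without both Nnm arrays numbered 2, 2 of these 5 stayed among the nearest 5, and 3 stayed without Nnm replicate 3 at 24 h. Nearness over these arrays is a description.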

How the data were processed

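Gene expression was measured on 12 Affymetrix arrays, 1 per sample. The deposited table holds log2 expression values per probe set, for which the submitters' processing notes name GCRMA without its version. GCRMA subtracts background and brings arrays to a common distribution, so a shift shared by most genes would not be seen. Detection calls and scanner files were not used here. The number of arrays limits the precision.

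Groups came from the sample titles. Probe sets above log2 4 on at least 3 arrays (22829 of 54675, with 62 controls left out) entered 1 model of 4 groups. The model was fitted in limma 3.58.1 under R 4.3.3 (lmFit, contrasts.fit and eBayes, 8 residual degrees of freedom) and checked on simulated data. These held independent noise on each array, so the check did not cover same-numbered arrays that deviate together or Nnm arrays near the controls. Benjamini-Hochberg adjustment ran over all tested probe sets in each of 5 comparisons, with calls at an adjusted p under 0.05. The members and lists were chosen with earlier results of these data known. Members were named with all probe sets; of each list, up to 3 called genes with the largest change were named, or the gene with the smallest p, and for TXNIP and ARRDC4 the 5 nearest genes. "At least" folds set a group under log2 4 at that level.

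Arrays that share a replicate number deviated together (18 correlations between groups, 0.162 to 0.669, over tested probe sets, against a median of -0.208 for 36 pairs with different numbers). The main model does not pair the samples by number, and fits with the number as a block were run beside it. Pairing by number rests on the data, not on a label. Alternatives were the replicate block, the filter, array weights, an intensity trend, centring, quantile normalization, separate fits, the mean of a gene's probe sets, and arrays left out. Promoters came from the RefSeq table of GRCh38.p14; protein sequences were not used here. Gene symbols came from the platform annotation, updated through RefSeq.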

Additional observations from a re-analysis of the deposited data

How the results depend on the processing

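ARRDC3 was called at both times in all alternatives. No called change of a member or a named list gene turned its direction. Of 819 values of members under an alternative, 775 stayed on their side of the threshold or, where untested, moved by less than 1 SD, 25 became called, 18 lost their call and 1 moved, the excess of the 48 h change of TXNIP over its 24 h change without control replicate 1 at 48 h (2.65). The 25 include TXNIP in controls over time and ARRDC4 in Nnm-treated cells over time, whose calls are a description. Sizes still moved among the 775: the 24 h change of ARRDC2 fell as low as 0.44 and that of MLXIP as low as 0.39, the difference between the changes of ARRDC4 ran from -0.91 to 0.64, and the uncalled time difference of ARRDC2 in Nnm-treated cells, -0.53, went to 0.01.

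Of 5 members tested, the number called at 24 h was 2. It was 1 under the block within each time, 1 with no filter and 1 with separate fits. It was 5 with array weights, 5 without the Nnm arrays numbered 2, and 1 to 4 with 1 array left out. Over all 22829 tested probe sets, calls at 24 h also went up, from 3366 to 12093 with array weights and to 10730 without those arrays. At 48 h the number of members called was 2, with 1 with no filter, 1 with separate fits and 1 to 2 with 1 array left out. Without the Nnm arrays numbered 2 it was 3, where calls over all probe sets went from 2323 to 9605. For the difference between the Nnm effects 0 of the 5 were called, and 0 to 1 with 1 array left out. With array weights 2 were called, beside 3899 of all probe sets. Without the Nnm arrays numbered 2 it was 2, beside 2556. Comparisons over time count all 7 members. In controls over time 1 of the 7, TXNIP, was called with array weights, beside 94 of all probe sets. In Nnm-treated cells 3 of the 7 (ARRDC4, ARRDC2 and ARRDC1) were called with array weights, beside 7850 of all probe sets. The same 3 were called without the Nnm arrays numbered 2, beside 4985, and 0 to 3 with 1 array left out. TXNIP and ARRDC4 were selected on these arrays, so their calls are a description. Since the weights were lowest for the Nnm arrays numbered 2, the weighted counts are not separate from those without these arrays.

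Probe sets called at 24 h were 3366, with 6700 under the replicate block over all arrays, 848 with no filter, 112 with separate fits, 12093 with array weights, 10730 without the Nnm arrays numbered 2 and 81 to 8683 with 1 array left out. At 48 h they were 2323, with 5046 under the replicate block, 842, 115, 11202 and 9605 under the other settings in that order, and 207 to 6117 with 1 array left out. For the difference they were 0, with 2 with no filter, 3899 with array weights, 2556 without the Nnm arrays numbered 2 and 0 to 1028 with 1 array left out. In controls over time they were 0, with 12 under the replicate block, 1 with no filter, 1 with a stricter filter, 4 with a separate fit, 94 with array weights, 26 without the Nnm arrays numbered 2 and 0 to 4 with 1 array left out. In Nnm-treated cells they were 0, with 16 with no filter, 7850 with array weights, 4985 without the Nnm arrays numbered 2 and 0 to 3683 with 1 array left out. The cause of these shifts was not tested. Under the replicate block no call of a member or a named list gene changed beyond those given in the text. The block within each time was not run for comparisons over time, nor a separate fit for the difference.

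With 3 arrays a group and 8 residual degrees of freedom, a p that misses the threshold does not show equal levels, and values under log2 4 carry no order.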
